A study of Mus musculus with 12 samples.

Results

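The VEGF and angiopoietin family ligands were examined in bulk RNA-Seq of W-20 cells, a mouse bone marrow stromal cell (BMSC) line (W-20-17). The 9 genes were *Vegfa*, *Vegfb*, *Vegfc*, *Vegfd*, *Pgf*, *Angpt1*, *Angpt2*, *Angptl2* and *Angptl4*. They were chosen by name, with earlier results of these data known, and found through their Ensembl identifiers among the 56980 genes of the count matrix. Counts and medians of the 9 genes set beside all genes are therefore a description only. The 12 libraries formed 4 groups of 3: WT cells with vehicle, WT cells with PTH, Y428F cells with vehicle and Y428F cells with PTH. PTH was given at 50 nM for 2 hours, and vehicle was PBS. In the study's terms, Y428F is a tyrosine-to-phenylalanine change in YAP, the transcriptional coactivator held back by Hippo signaling. The study asked how PTH signaling and Hippo signaling meet in BMSCs.

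What limits the Y428F cells as a model has to be read with every comparison of the lines. The study made its mutant cells by introducing a FLAG-tagged YAP construct and selecting stable lines with puromycin, and its methods do not describe removal of the endogenous gene. Its results text describes the sequenced mutant cells as carrying Y428F together with a serine-to-alanine change at a LATS1 site of YAP, whereas elsewhere that text, like the library titles, names Y428F only. The genotype field of the Y428F libraries says WT, so the group here rests on the titles. No line carrying wild-type YAP from the same procedure was analysed here, so the mutation cannot be told apart from selection, from the level of YAP, or from drift between lines. Nothing in the labels says whether the 3 libraries of a group came from separate cultures on separate days, so p-values measure the spread between these libraries, which may be technical.

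These genes encode secreted proteins that blood and lymph vessels read. *Vegfa* is the main growth signal of blood vessel endothelium and is induced by hypoxia-inducible factors (HIF) when oxygen is low; *Vegfb* and *Pgf* bind one of its receptors, and *Vegfc* and *Vegfd* act mainly on lymphatic endothelium after proteolytic processing. *Angpt1* activates the endothelial receptor *Tek* and steadies vessels, *Angpt2* often opposes it, and *Angptl2* and *Angptl4* share the fold of the angiopoietins but do not bind *Tek*. *Angptl4* is also an inhibitor of lipoprotein lipase and a target of the lipid-sensing PPAR receptors. Marrow stromal cells are known as a source of such ligands, and VEGF made by osteoblast lineage cells couples vessel growth to bone formation.

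Library totals ranged from 17127897 to 19057319 counts. Levels are given as CPM, edgeR's library-scaled counts with TMM factors for composition, and all 9 genes passed the filter of at least 10 counts in total. The least abundant, *Angpt2*, had 51 to 115 counts per library, and the most abundant, *Angptl2*, had 3054 to 11306. A gene was called when edgeR's quasi-likelihood test gave an adjusted p under 0.05 (Benjamini-Hochberg, 17691 genes). The first vehicle library of WT cells stood somewhat apart from the other 2, as the chi-square of its counts per degree of freedom was 15.2 and 10.9 against them, compared with 8.76 between those 2. The third PTH library of WT cells (7.92 and 11 against 2.94 for the other pair) and the first PTH library of Y428F cells (11.9 and 6.62 against 4.33) also stood apart.

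The cells carried stromal markers, led by the collagen gene *Col1a2* at a mean of 9996 CPM, but *Lum* (0 to 2 counts per library) and *Dcn* (0 to 4), also stromal markers, were nearly absent, and *Lepr*, at 1 to 21 counts, was higher in Y428F libraries. Summed over 8 stromal markers, the level was between 19020 and 22840 CPM in the WT libraries and between 9961 and 14470 CPM in the Y428F libraries, so it was lower in each Y428F library. Endothelial markers were near the floor, and of 10 genes *Cldn5* and *Erg* had 0 counts in every library. The most abundant was *Cdh5* at a mean of 3.78 CPM. The sum was 2.68 to 4.34 CPM in WT and 7.52 to 11.5 CPM in Y428F libraries. *Cdh5* was higher in Y428F cells, with vehicle means of 0.81 CPM (WT) and 7.95 CPM (Y428F). *Vwf* was lower in Y428F cells, by -1.01 on the log2 scale with vehicle (adjusted p = 0.00427 in edgeR's test) and -0.75 with PTH (0.0359). The sum of 6 macrophage and blood cell markers was 6.49 to 8.99 CPM in WT and 17.0 to 21.9 CPM in Y428F libraries, led by *Cd14* at a mean of 8.82 CPM, with 1 of the 6 genes never above 3 counts. The 4 pericyte markers summed to 179 to 216 CPM in WT and 161 to 192 CPM in Y428F libraries. That sum was nearly all *Mcam*, at a mean of 186 CPM. *Kcnj8* had 0 counts, *Rgs5* 0 to 4 and *Cspg4* 0 to 12 counts per library. Adipocyte markers were at or near 0, *Adipoq* at 0 and the most abundant, *Plin1*, at a mean of 0.116 CPM. The stromal, endothelial and blood cell sums lay apart between the lines, while the adipocyte ranges overlapped. The pericyte ranges overlapped only when the treatments were pooled. Within each treatment the pericyte sum was lower in each Y428F library, at 161 to 169 against 179 to 186 CPM with vehicle. With PTH the same sum was 186 to 192 against 199 to 216 CPM. With PTH, the pericyte sum was higher without overlap, at 199 to 216 against 179 to 186 CPM in WT libraries and 186 to 192 against 161 to 169 CPM in Y428F libraries. In the Y428F libraries, PTH groups were also apart from vehicle groups in the stromal sum (9961 to 12660 against 13440 to 14470 CPM), the endothelial sum (7.52 to 8.37 against 9.48 to 11.5 CPM) and the blood cell sum (higher in each PTH library, up to 21.9 against up to 18.3 CPM). The part of these markers in the results was not tested. In bulk RNA, fewer cells of a type and less RNA per cell cannot be told apart.

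Levels of different genes were compared per kilobase of merged exons. In WT cells with vehicle, *Angptl2* stood first at 76.6 ± 4.67 CPM per kb (SD, n = 3), followed by *Vegfa* at 34.8 ± 1.78 and *Angptl4* at 31.3 ± 1.89 CPM per kb. *Vegfb* followed at 16.3 ± 1.18 and *Pgf* at 8.32 ± 0.263 CPM per kb. *Vegfd*, at 4.92 ± 0.505 CPM per kb, and *Angpt1*, at 4.85 ± 0.876, overlapped, and *Vegfc* at 3.10 ± 0.590 and *Angpt2* at 0.806 ± 0.0600 CPM per kb closed the order. The order was the same in WT cells with PTH, where the libraries of *Vegfa* (25.7 ± 1.13 CPM per kb) and *Angptl4* (24.1 ± 0.958) overlapped. In Y428F cells with vehicle, *Angptl2* (28.4 ± 0.755 CPM per kb), *Vegfa* (28.0 ± 0.524) and *Angptl4* (27.8 ± 0.450) overlapped by this length. There *Vegfc* came next after *Vegfb*, at 6.73 ± 0.211 CPM per kb, ahead of *Pgf* (4.32 ± 0.422) and *Vegfd* (2.94 ± 0.421). *Angpt1*, at 0.763 ± 0.101 CPM per kb, overlapped *Angpt2* at 1.06 ± 0.210 at the foot of the order. In Y428F cells with PTH, *Vegfa* (26.8 ± 0.586) and *Angptl2* (24.8 ± 2.23) again overlapped, above *Angptl4* at 19.8 ± 0.668 CPM per kb. With the longest annotated transcript as the length, 1 of the 9 genes kept its place in all 4 groups. By that length *Angptl2* led in Y428F cells too, at 52.8 CPM per kb with vehicle against 37.8 for *Angptl4* and 34.0 for *Vegfa*, and at 46.2 with PTH against 32.5 for *Vegfa*, with no overlap, so the overlap of *Angptl2* with *Vegfa* depends on the length used.

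**Figure D1:**
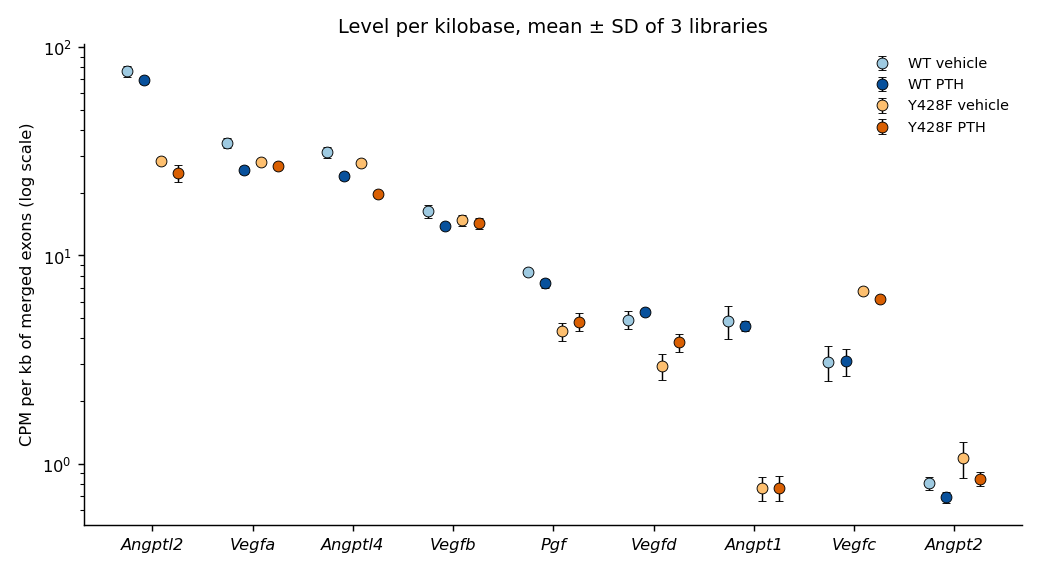
Mean level of each ligand gene in CPM per kb of merged exons (log axis) in the 4 groups, with bars for the SD of 3 libraries and genes ordered by WT cells with vehicle. *Angptl2* leads in WT cells at 76.6 CPM per kb and meets *Vegfa* and *Angptl4* near 28 CPM per kb by this length in Y428F cells with vehicle, whereas *Vegfc* lies higher and *Angpt1* lower in Y428F cells.

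In WT cells, PTH was followed by lower expression of 3 of the 9 ligands, *Vegfa*, *Vegfb* and *Angptl4*, and none rose. Across all genes tested, 13.4% were called in this comparison, 7.42% higher and 6.01% lower. The median log2 fold change of the 9 genes was -0.17, beside -0.02 for all genes.

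*Vegfa* (ENSMUSG00000023951.19) lies on the minus strand of chromosome 17 at 46327919 to 46343309 in GRCm39. In the WT vehicle libraries it was at 145, 158 and 145 CPM, and in the WT PTH libraries at 114, 113 and 105 CPM. Each PTH library was below each vehicle library. The mean fell from 149 ± 7.66 to 111 ± 4.86 CPM (SD, n = 3), or by -0.43 on the log2 scale (SE 0.055, 95% interval -0.55 to -0.32, adjusted p = 1.48e-05), and the call held in all 19 alternatives, with adjusted p up to 0.000591. *Angptl4* (ENSMUSG00000002289.17, chromosome 17, 33992724 to 34000804, minus strand) was at 150, 136 and 135 CPM with vehicle and at 104, 108 and 113 CPM with PTH. Its groups did not overlap either, and its log2 fold change was -0.38 (SE 0.057, adjusted p = 0.000107), called in all 19 alternatives.

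*Vegfb* (ENSMUSG00000024962.14, chromosome 19, 6958447 to 6965127, minus strand), a ligand known more for effects on heart and lipid handling than for sprouting, was at 49.8, 52.0 and 57.3 CPM with vehicle and at 44.9, 45.5 and 44.1 CPM with PTH. The third vehicle library was the highest and no library overlapped. The log2 fold change was -0.24 (SE 0.071, adjusted p = 0.0262). This call was lost when WT libraries alone were fitted (adjusted p = 0.0606), and when vehicle library 2 (0.0546) or 3 (0.154) or PTH library 1 (0.0761), 2 (0.0571) or 3 (0.0614) was left out, with log2 fold changes between -0.25 and -0.18.

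The other 6 ligands were not called in WT cells. *Pgf* (ENSMUSG00000004791.8, chromosome 12, 85213409 to 85224564, minus strand), the placental growth factor, was at 24.7, 24.9 and 23.5 CPM with vehicle and at 22.7, 21.5 and 20.5 CPM with PTH, without overlap but with an adjusted p of 0.246. *Angptl2* (ENSMUSG00000004105.9, chromosome 2, 33105946 to 33138252, plus strand), a secreted glycoprotein linked to inflammation, was at 542, 600 and 607 CPM with vehicle and at 519, 553 and 510 CPM with PTH (log2 fold change -0.15, SE 0.065, adjusted p = 0.162). Its groups overlapped, and the call appeared with scaling by library totals (adjusted p = 0.0339). *Angpt2* was 3.86 ± 0.288 CPM with vehicle and 3.31 ± 0.205 with PTH (log2 fold change -0.22, 95% interval -0.59 to 0.15), again without overlap. *Vegfc* (0.01, -0.26 to 0.28), *Vegfd* (0.13, -0.10 to 0.36) and *Angpt1* (-0.08, -0.32 to 0.15), each given as a log2 fold change and its 95% interval, had intervals that span 0.

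**Figure D2:**
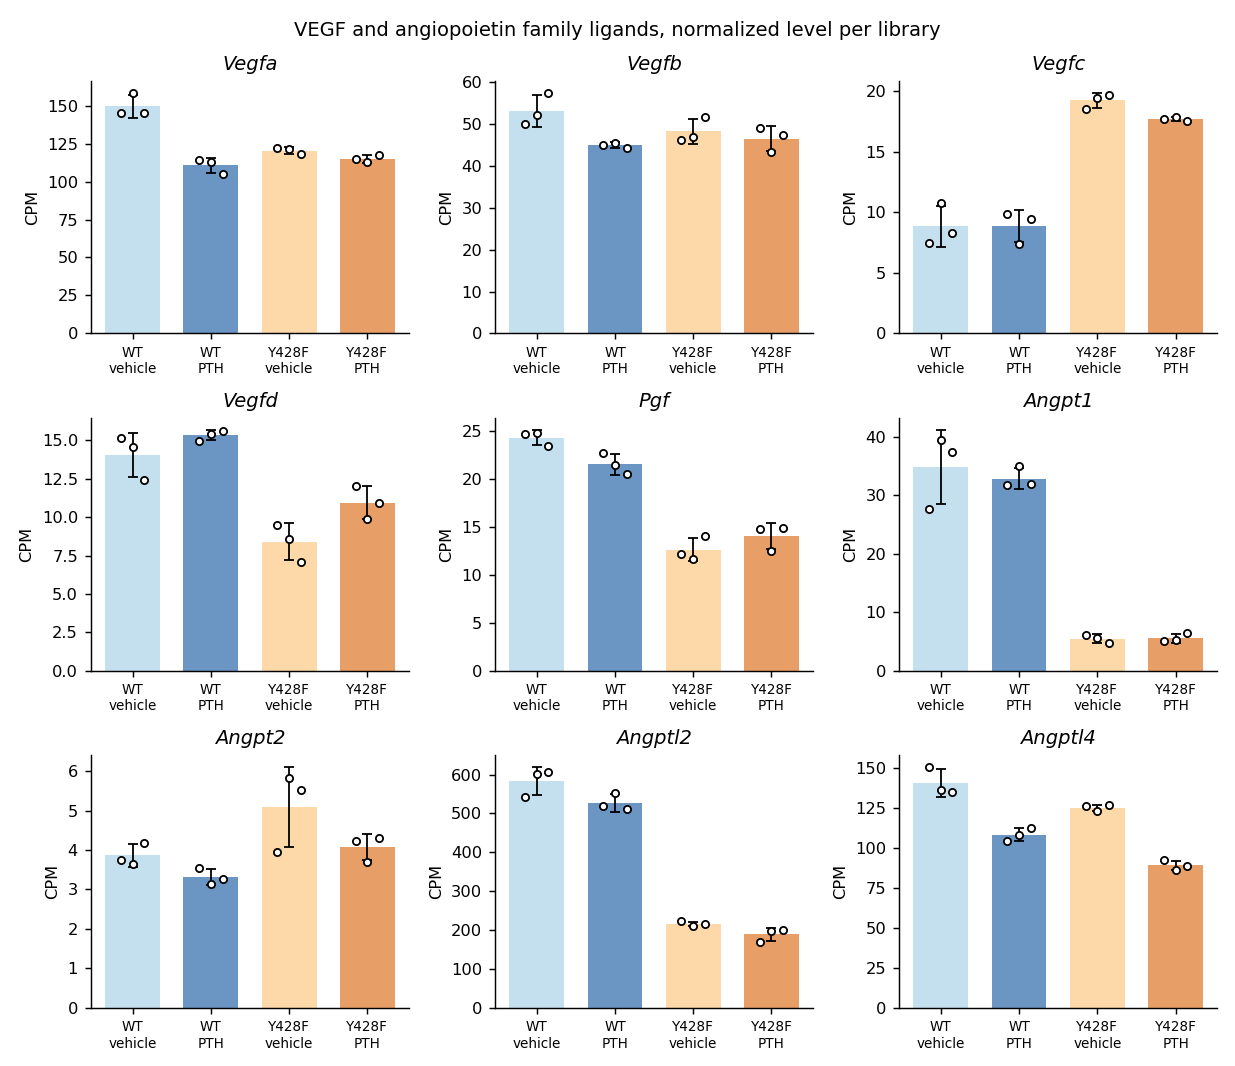
Level of each ligand gene in CPM (vertical axes from 0, a separate scale per gene) in WT and Y428F cells with vehicle or PTH; open circles are the 3 libraries, bars their mean and whiskers the SD. *Vegfa* with PTH lies apart from vehicle by a wide gap in WT cells (114 CPM or less against 145 or more) and by a narrow one in Y428F cells, *Angptl4* is lower with PTH in both lines, and *Angpt1* and *Angptl2* are low in all Y428F libraries.

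*Vegfa* is the ligand whose response differed between the lines. *Angptl2* was the most abundant ligand in WT cells and among those with the widest line difference. The sequences before the start sites of both genes are therefore shown. They are the 250 bases upstream of the start in the RefSeq promoter table (build GRCm38), each matched exactly once in GRCm39, at chr17:46343304-46343553 on the minus strand for *Vegfa* and chr2:33105723-33105972 on the plus strand for *Angptl2*. Capitals mark the GC box, GGGCGG or its reverse complement, a sequence known to bind Sp1 proteins.
Vegfa: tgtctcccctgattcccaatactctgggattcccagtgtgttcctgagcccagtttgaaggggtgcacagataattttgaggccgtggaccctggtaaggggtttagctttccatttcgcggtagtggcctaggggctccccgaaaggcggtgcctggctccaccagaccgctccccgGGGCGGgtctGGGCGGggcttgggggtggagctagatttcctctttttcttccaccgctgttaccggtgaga
Angptl2: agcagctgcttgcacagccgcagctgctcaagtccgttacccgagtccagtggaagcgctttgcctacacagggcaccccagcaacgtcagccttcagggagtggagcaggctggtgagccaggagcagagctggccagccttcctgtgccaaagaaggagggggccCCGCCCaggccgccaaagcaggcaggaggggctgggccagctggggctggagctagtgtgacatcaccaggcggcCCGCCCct
In *Vegfa* the boxes lay 72 to 67 and 62 to 57 bases before the start, and in *Angptl2* 83 to 78 and 8 to 3 bases before it. Of 32851 promoter windows of this length, 32.7% held a GC box on either strand. Neither window held the hypoxia response core ACGTG (16.6% of windows), the cAMP response element TGACGTCA (1.55%) or the TEAD element GGAATG (12.6%), searched on both strands. A second RefSeq start of *Vegfa*, whose window at chr17:46336090-46336339 lies inside the gene, held ACGTG 211 to 207 bases upstream. In all, 6 of the 9 genes had an entry, and *Angpt1*, *Angpt2* and *Angptl4* had none. A match is a string of letters, not a measured site.

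In Y428F cells, PTH was followed by a lower level of *Angptl4* and a higher level of *Vegfd*, and the other 7 ligands were not called. Among all genes 12.4% were called, 6.61% higher and 5.78% lower. The median log2 fold change of the 9 genes was -0.07, beside -0.01 for all genes.

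*Angptl4* was at 126, 123 and 127 CPM in the Y428F vehicle libraries and at 92.3, 86.3 and 88.6 CPM with PTH. The groups lay far apart, at -0.49 on the log2 scale (SE 0.057, 95% interval -0.61 to -0.37, adjusted p = 7.12e-06), called in all 19 alternatives. *Vegfd* (ENSMUSG00000031380.11, chromosome X, 163156240 to 163185646, plus strand), a lymphatic growth factor, was at 9.47, 8.59 and 7.10 CPM with vehicle and at 12.0, 9.88 and 10.9 CPM with PTH. The groups did not overlap, although the highest vehicle library was close to the lowest PTH library, and the log2 fold change was 0.38 (SE 0.12, adjusted p = 0.0410). The call was lost with library totals (adjusted p = 0.0758) and without vehicle library 2 (0.0924) or 3 (0.202) or PTH library 1 (0.169) or 3 (0.0894) of the Y428F cells, with log2 fold changes between 0.28 and 0.40.

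*Vegfa* in Y428F cells was at 122, 121 and 118 CPM with vehicle and at 115, 113 and 118 CPM with PTH. The lowest vehicle and the highest PTH library nearly met, and the response of -0.07 on the log2 scale (95% interval -0.18 to 0.05, adjusted p = 0.535) was not called. *Vegfb* was 48.2 ± 2.99 and 46.4 ± 2.94 CPM, with an interval of -0.20 to 0.09 on the log2 scale. *Angptl2* was at 222, 211 and 215 CPM with vehicle and at 169, 197 and 200 CPM with PTH. All PTH libraries were lower, the first by most, and the log2 fold change of -0.19 (SE 0.066) missed the limit at an adjusted p of 0.0636; it passed in 7 of 19 alternatives, among them DESeq2 (0.0266), library totals (0.0155), Y428F libraries alone (0.0442) and the fit without WT vehicle library 1 (0.0331). *Vegfc* (log2 fold change -0.12), *Pgf* (0.15), *Angpt1* (0.01) and *Angpt2* (-0.32, 95% interval -0.67 to 0.02) were not called.

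**Figure D3:**
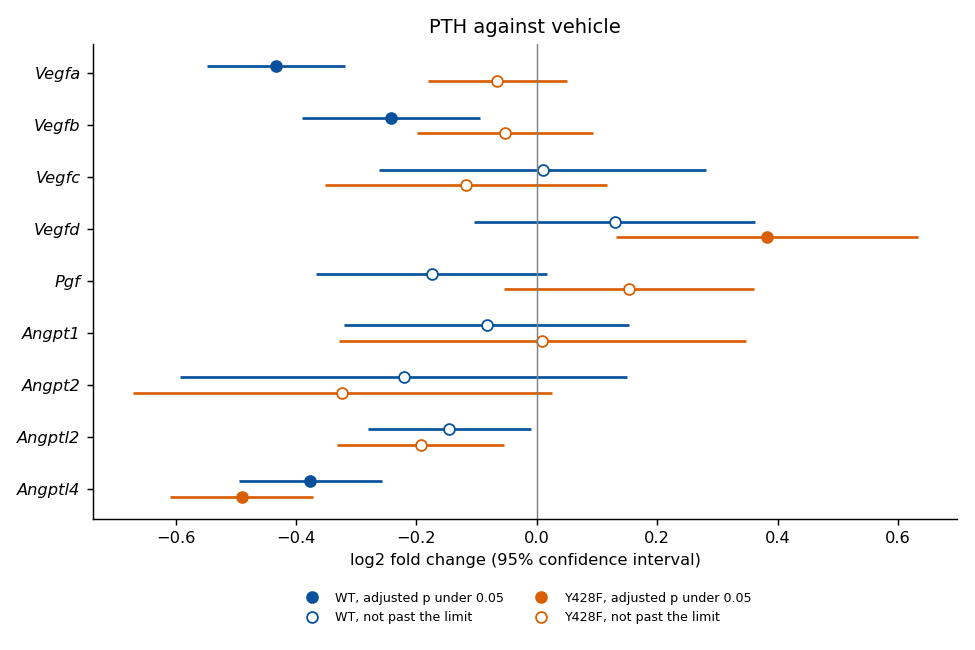
Log2 fold change with PTH against vehicle (horizontal axis) and its 95% confidence interval for each ligand gene in WT (blue) and Y428F cells (orange); filled points have an adjusted p under 0.05 in edgeR's test. *Angptl4* is filled in both lines, *Vegfa* at -0.43 and *Vegfb* in WT cells only, and *Vegfd* at 0.38 in Y428F cells only; of these the difference between lines passed its own test for *Vegfa* alone.

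The response to PTH differed between the lines for *Vegfa* and for no other of the 9 ligands. Its log2 fold change was 0.37 higher in Y428F than in WT cells (SE 0.078, 95% interval 0.21 to 0.53, adjusted p = 0.0372), in a test of the difference itself that called 0.413% of all genes, 73 of 17691 (0.17% higher and 0.243% lower). The 4 group means show the form of this difference. With vehicle, WT cells stood at 149 CPM, and the other 3 groups lay between 111 and 120 CPM. Leaving out 1 library at a time gave adjusted p from 0.0278 to 0.137, and the call was kept only without WT vehicle library 1 (0.0278) or Y428F PTH library 2 (0.0424). The fits without any of the other 10 libraries lost it, although the difference stayed between 0.32 and 0.40. *Pgf* had the next largest difference, 0.33 (95% interval 0.05 to 0.61), with an unadjusted p of 0.0248 and an adjusted p of 0.626. For *Angptl4* the difference was -0.11 (-0.28 to 0.05), for *Vegfb* 0.19 (-0.02 to 0.40) and for *Vegfd* 0.25 (-0.09 to 0.60), so differences of that width were not resolved.

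The lines themselves differed more. With vehicle, 7 of the 9 ligands differed, *Vegfc* higher and *Vegfa*, *Vegfd*, *Pgf*, *Angpt1*, *Angptl2* and *Angptl4* lower in Y428F cells. With PTH, 6 differed, *Vegfc* higher and *Vegfd*, *Pgf*, *Angpt1*, *Angptl2* and *Angptl4* lower. The lines also differed across the transcriptome: 45.1% of all genes were called with vehicle (22.4% higher, 22.7% lower) and 45.7% with PTH (22.8% higher, 23% lower). The median log2 difference of the 9 genes was -0.31 with vehicle and -0.28 with PTH, beside 0.01 and 0.02 for all genes.

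Among the ligands of *Tek*, *Angpt1* (ENSMUSG00000022309.10, chromosome 15, 42288058 to 42540417, minus strand) had the widest gap. With vehicle it was at 27.7, 39.5 and 37.3 CPM in the WT and at 6.13, 5.61 and 4.70 CPM in the Y428F libraries. The lowest WT library was still far above the highest Y428F library, and the log2 difference was -2.66 (SE 0.14, adjusted p = 1.74e-12). With PTH it was at 31.8, 34.9 and 31.9 CPM in WT and at 4.99, 5.16 and 6.39 CPM in Y428F cells, a log2 difference of -2.57 (SE 0.14, adjusted p = 3.47e-12). *Angpt2* (ENSMUSG00000031465.7, chromosome 8, 18739202 to 18791603, minus strand) was, with vehicle, at 3.76, 3.64 and 4.19 CPM in the WT and at 3.94, 5.81 and 5.52 CPM in the Y428F libraries. The groups overlapped, and the log2 difference of 0.40 (SE 0.17, adjusted p = 0.0583) was not called, though it passed with library totals (0.0314), with a filter of 10 counts in every library (0.0367) and without Y428F vehicle library 1 (0.0117). In the annotation 3387 exonic bases of *Angpt2* overlap *Mcph1* on the opposite strand, which was more abundant, at 27.0 and 34.6 CPM in the same groups. Whether the counting used strand is not given in the sources used here, so the values of *Angpt2* are uncertain.

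*Angptl2* had the second widest gap. The values given above, 542 to 607 CPM (WT) and 211 to 222 CPM (Y428F) with vehicle, lie far apart. The log2 difference was -1.43 (SE 0.066, adjusted p = 4.40e-13) with vehicle and -1.48 (SE 0.067, adjusted p = 2.67e-13) with PTH. *Angptl4* differed by less. With vehicle its means were 141 ± 8.51 CPM (WT) and 125 ± 2.02 CPM (Y428F), a log2 difference of -0.17 (SE 0.056, adjusted p = 0.0185) that was lost with library totals (0.125) and without WT vehicle library 1 (0.0920) or Y428F vehicle library 2 (0.0666). With PTH the difference was -0.28 (SE 0.058, adjusted p = 0.000366).

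Of the VEGF genes, *Vegfc* (ENSMUSG00000031520.7, chromosome 8, 54530257 to 54640131, plus strand) was the one that was higher in Y428F cells. With vehicle it was at 7.51, 10.7 and 8.32 CPM in WT and at 18.6, 19.5 and 19.7 CPM in Y428F cells, and with PTH at 9.85, 7.38 and 9.43 against 17.7, 17.9 and 17.6 CPM. The lines did not overlap under either condition, and the log2 difference was 1.12 (SE 0.12, adjusted p = 1.24e-07) with vehicle and 0.99 (SE 0.12, adjusted p = 8.34e-07) with PTH. Its close relative *Vegfd* was lower, at 12.4 to 15.1 CPM (WT) against 7.10 to 9.47 CPM (Y428F) with vehicle (log2 difference -0.74, SE 0.12, adjusted p = 2.33e-05), and at -0.49 (SE 0.11, adjusted p = 0.00140) with PTH. *Pgf*, at 23.5 to 24.9 CPM in the WT vehicle libraries, was at 12.2, 11.7 and 14.03 CPM in those of Y428F cells, and at 14.8, 12.5 and 14.9 CPM in their PTH libraries. No library of the lines overlapped, with a log2 difference of -0.95 (SE 0.095, adjusted p = 5.49e-08) with vehicle and -0.62 (SE 0.096, adjusted p = 1.80e-05) with PTH. The 2 lymphatic ligands thus differed between the lines in opposite directions.

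For *Vegfa* the line difference was called with vehicle (-0.31, SE 0.055, adjusted p = 7.89e-05) and not with PTH (0.06, 95% interval -0.06 to 0.17, adjusted p = 0.438). The test that these 2 differences are unequal is the test of the difference in response given above, and the former shares its WT vehicle libraries with the PTH response of WT cells. *Vegfb* was not called under either condition, with log2 differences of -0.14 (95% interval -0.29 to 0.01) and 0.05 (-0.10 to 0.20), but passed with vehicle when WT vehicle library 1 (adjusted p = 0.0453) or Y428F vehicle library 3 (0.0478) was left out.

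Whole chromosomes shifted between the lines by less than most of these genes. With vehicle, the median log2 difference over expressed genes was -0.06 on chromosome 2 (841 genes), -0.13 on chromosome 8 (589), -0.06 on chromosome 12 (354), 0.20 on chromosome 15 (434), -0.08 on chromosome 17 (532), 0.12 on chromosome 19 (371) and 0.11 on chromosome X (333). *Angpt1*, at -2.66, was lower on a chromosome whose median was higher, and *Vegfc*, at 1.12, higher on one whose median was lower. For *Angptl4* the chromosome median was nearer to the gene's own difference of -0.17. The part of chromosomal shifts in the differences of these genes was not tested, and a chromosome median does not show a local one.

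**Figure D4:**
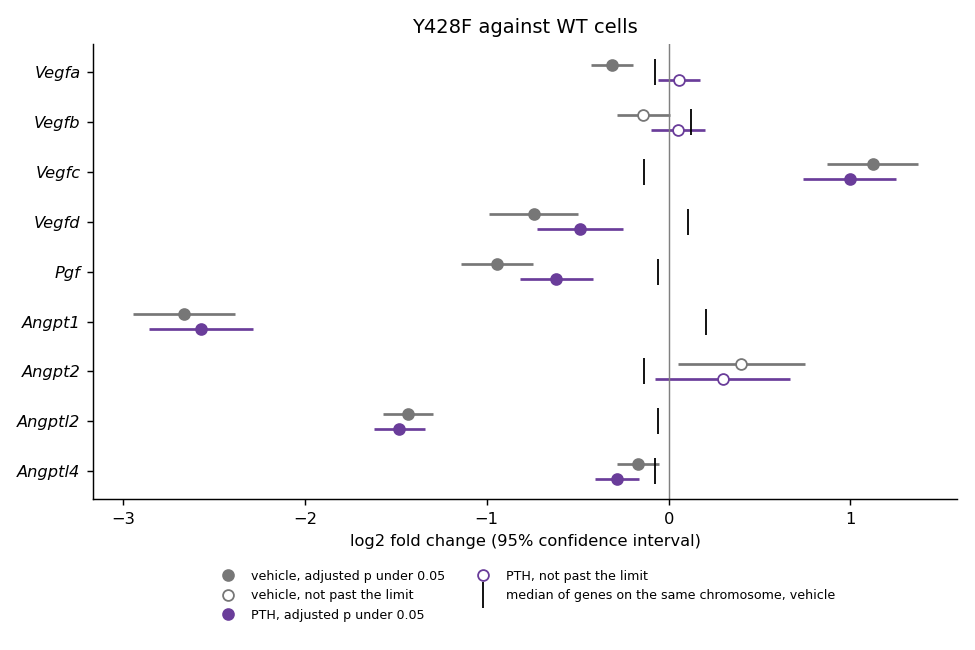
Log2 fold change of Y428F against WT cells (horizontal axis) with 95% confidence interval for each ligand gene, with vehicle (grey) and with PTH (purple); filled points have an adjusted p under 0.05 and black ticks give the median of expressed genes on the same chromosome with vehicle. *Angpt1* and *Angptl2* lie far to the left at -2.66 and -1.43 with vehicle, *Vegfc* to the right at 1.12, and *Vegfa* moves from -0.31 with vehicle to 0.06 with PTH.

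Over the 12 libraries the 9 genes fell into patterns set mostly by the lines. As a description over libraries that share the line and the treatment, Pearson's r of log2 CPM was 0.99 for *Angpt1* and *Angptl2*, 0.947 for *Pgf* and *Angpt1*, and -0.949 for *Vegfc* and *Angpt1*. *Vegfa* and *Vegfb* had r = 0.756, and *Vegfa* and *Angptl4* r = 0.704. Among the 11217 genes whose mean reached 2 CPM, the gene most like *Vegfa* was *Irf1* (r = 0.945), an interferon-responsive transcription factor. The gene most like *Angptl4* was *Orai3* (0.971), which encodes a calcium channel subunit. *Angpt1* was closest to *Cp* (0.998), the gene of the copper protein ceruloplasmin, *Angptl2* to *Gpr153* (0.999), an orphan receptor gene, and *Vegfc* to *Mtcl2* (0.99). For *Pgf* it was *Snx29* (0.983), for *Vegfd* *Prkag3* (0.962), for *Angpt2* *Bacc1* (0.919) and for *Vegfb* *Tmem161a* (0.913).

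The VEGF and angiopoietin receptors examined were nearly silent in the cells themselves, apart from the neuropilins. Receptors of *Angptl2* and *Angptl4* were not examined. *Flt1* and *Kdr*, the signaling receptors of *Vegfa*, had 0 to 6 and 0 to 5 counts per library, with *Kdr* at 0 in all 6 WT libraries. *Flt4*, the receptor of *Vegfc* and *Vegfd*, had 0 or 1 count. *Tek* had 4 to 16 counts and its partner *Tie1* 0 to 3. *Flt4* and *Tie1* did not pass the filter, and none of *Flt1*, *Kdr* and *Tek* was called in any comparison. Of all genes, 13.4% were called with PTH in WT and 12.4% in Y428F cells. Between the lines it was 45.1% with vehicle and 45.7% with PTH, and 0.413% for the difference in response. *Kdr* came nearest, between the lines under PTH, with 0 to 5 counts in Y428F libraries (adjusted p = 0.0531), and it was called with library totals (0.0490) and without Y428F vehicle library 3 (0.0493) or Y428F PTH library 2 (0.0234). The co-receptor *Nrp1* had vehicle means of 123 ± 18.7 CPM (WT) and 57.5 ± 0.384 CPM (Y428F), a log2 difference of -1.10 (SE 0.082, adjusted p = 7.23e-10), and the difference was -0.91 (adjusted p = 1.18e-08) with PTH. *Nrp2*, the co-receptor used by *Vegfc*, was higher in Y428F cells, at 189 ± 24.9 and 221 ± 4.80 CPM with vehicle (0.23, adjusted p = 0.0200) and by 0.34 (adjusted p = 0.00105) with PTH. The former call was lost without WT vehicle library 1 (0.127) or Y428F vehicle library 1 (0.0723). With PTH neither neuropilin was called in either line. In WT cells the log2 fold changes were -0.18 for *Nrp1* and for *Nrp2*, and without WT vehicle library 1, which was low in both, they were -0.29 (adjusted p = 0.00141) and -0.28 (0.00447). *Nrp2* also passed in WT cells with library totals (0.0365) and with no filter on low counts (0.0385).

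Of 6 genes that process *Vegfc* and *Vegfd*, 4 were tested. In WT cells none of them was called under PTH, beside 13.4% of all genes, although *Ccbe1* had an unadjusted p of 0.0138 in edgeR's test. The count was also 0 in DESeq2, and 1 with no filter on low counts or without WT vehicle library 1. In Y428F cells, where 12.4% of all genes were called, *Adamts14*, a procollagen protease, fell by 0.44 on the log2 scale (SE 0.097, adjusted p = 0.00418). Between the lines with vehicle, *Ccbe1*, the cofactor that speeds cleavage of the *Vegfc* product, was higher in Y428F cells by 0.85 (SE 0.19, adjusted p = 0.000841). *Adamts14* was lower (-0.87, SE 0.090, adjusted p = 8.61e-08), and *Pcsk7*, a furin-like convertase, had a log2 difference of -0.21 (adjusted p = 0.0223), which was lost with library totals (0.080) and without WT vehicle library 3 (0.0930) or Y428F vehicle library 2 (0.0523) or 3 (0.0773).

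The HIF system, which induces *Vegfa* and *Angptl4* at low oxygen, was compared with a list of 9 oxygen-sensing genes and a list of 17 target genes. Of the former, 8 were tested, and with PTH in WT cells, where 7.42% of all genes were called higher and 6.01% lower, 2 rose and none fell: *Egln1*, a prolyl hydroxylase that marks HIF for degradation, by 0.35 (SE 0.067, adjusted p = 0.00105), and *Egln2*, another one, by 0.20 (adjusted p = 0.0148, lost at 0.0624 with library totals). In Y428F cells, where 12.4% of all genes were called, it was *Egln1* alone (0.31, SE 0.067, adjusted p = 0.00365). *Hif1a* was not called in WT cells (log2 fold change 0.15, adjusted p = 0.0820). Between the lines *Arnt*, the partner subunit of HIF, was lower in Y428F cells, at 192 ± 10.7 against 97.6 ± 1.06 CPM with vehicle (log2 difference -0.98, SE 0.057, adjusted p = 1.50e-11) and by a like amount with PTH (-0.998, adjusted p = 1.14e-11). Of the 8 genes, 1 was higher and 3 were lower in Y428F cells with vehicle, and 0 and 4 with PTH, near the shares of all genes called in these comparisons (45.1% and 45.7%). The higher one was *Hif1an*, the HIF asparaginyl hydroxylase (0.32, SE 0.070, adjusted p = 0.000759). *Hif3a*, a sparse gene, had the widest log2 difference of the list, -5.52 with vehicle (adjusted p = 1.1e-05 in edgeR's test). It had 19 to 22 counts in WT and 0 or 1 count in Y428F vehicle libraries. With PTH its difference was -6.74 (adjusted p = 2.85e-05).

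The 17 hypoxia targets did not move one way with PTH, for which 13.4% of all genes were called in WT and 12.4% in Y428F cells. In WT cells 1 rose and 1 fell, with a list median of 0.08 beside -0.02 for all genes: *Slc2a1*, the glucose transporter, rose by 0.59 (SE 0.065, adjusted p = 2.49e-06), and *Ddit4*, an inhibitor of mTORC1 signaling, fell (-0.81, SE 0.075, adjusted p = 2.08e-07). In Y428F cells 3 rose and 2 fell, with a list median of 0.01. *Slc2a1* rose by 0.30 (adjusted p = 0.00371) and *Bhlhe40*, a transcriptional repressor, by 0.72 (SE 0.075, adjusted p = 1.65e-06), and *Mxi1*, a repressor related to the MYC network, fell (-0.34, adjusted p = 0.0164), as did *Ddit4* (-0.29, adjusted p = 0.00808). The call of *Mxi1* was lost without Y428F vehicle library 2 (0.0610) or 3 (0.05003) or Y428F PTH library 1 (0.0660). Between the lines with vehicle, 7 targets were higher in Y428F cells and 3 lower (list median 0.24 beside 0.01 for all genes), where 22.4% of all genes were called higher and 22.7% lower. The higher ones included the glycolytic genes *Ldha* (1.24, SE 0.053, adjusted p = 1.17e-13) and *Pgk1* (0.86, SE 0.057, adjusted p = 1.06e-10), and also *Ddit4* (0.90, adjusted p = 1.2e-09). The lower ones were *Ndrg1* (-0.60, adjusted p = 1.7e-08), *Kdm3a* (-0.71, adjusted p = 7.7e-09) and *Bhlhe40* (-0.46, adjusted p = 3.7e-05). With PTH, 7 were likewise higher and 3 lower (list median 0.16 beside 0.02), where 22.8% of all genes were called higher and 23% lower.

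Of 12 PPAR genes, PPAR targets and lipoprotein lipase, 11 were tested. With PTH, *Pparg*, the adipogenic receptor gene, rose in WT cells by 0.51 (SE 0.073, adjusted p = 5.39e-05) and in Y428F cells by 0.71 (SE 0.070, adjusted p = 9.62e-07), and *Ppard*, whose product is known to induce *Angptl4*, had log2 fold changes of -0.28 (adjusted p = 0.00599) and -0.27 (adjusted p = 0.00970). The fatty acid transporter *Cd36* was called higher in WT cells from 5 to 9 counts with vehicle and 12 to 27 with PTH (adjusted p = 0.0197), a call lost in WT libraries alone (0.0632) and without WT vehicle library 1 (0.0646) or 3 (0.0601) or WT PTH library 1 (0.129). In all, 2 of the 11 rose and 1 fell in WT cells, and 1 rose and 1 fell in Y428F cells, with list medians of 0.01 and -0.06, beside 13.4% and 12.4% of all genes called. *Lpl*, the enzyme that the product of *Angptl4* inhibits, was named after its values were seen. It was at 330 ± 29.3 CPM with vehicle and 351 ± 18.1 CPM with PTH in WT cells and was not called (adjusted p = 0.431). Between the lines it was called higher in Y428F cells, by 0.15 with vehicle (SE 0.062, adjusted p = 0.0496) and 0.17 with PTH (SE 0.062, adjusted p = 0.0265). The first call was kept without WT vehicle library 1 or WT PTH library 3 and was lost without any of the other 10 libraries (adjusted p up to 0.244), and the second was lost without WT PTH library 3 (0.106) or Y428F PTH library 1 (0.0884) or 2 (0.0956).

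Among 8 secreted inhibitors of vessel growth, 7 of which were tested, *Thbs1* (thrombospondin 1) was called in each comparison of treatment and of line. With PTH it rose from 2928 ± 292 to 7336 ± 807 CPM in WT cells (log2 fold change 1.32, SE 0.10, adjusted p = 1.32e-08) and from 1894 ± 116 to 3463 ± 582 CPM in Y428F cells (0.87, SE 0.10, adjusted p = 5.95e-06). *Adamts1*, a protease that binds the *Vegfa* product, rose in WT cells by 0.72 (SE 0.074, adjusted p = 7.87e-07) and was 0.16 higher without a call in Y428F cells (adjusted p = 0.198). The list had 2 genes higher and none lower in WT cells (median 0.10 beside -0.02 for all genes), and 1 higher and 1 lower in Y428F cells (median 0.01 beside -0.01), where 13.4% and 12.4% of all genes were called. The lower one was *Thbs2* (-0.31, SE 0.096, adjusted p = 0.0356), a call lost without WT PTH library 1 (0.0550), Y428F vehicle library 1 (0.144) or 2 (0.107) or Y428F PTH library 1 (0.157) or 3 (0.0567). Between the lines, 1 of the 7 was higher and 4 were lower in Y428F cells with vehicle, and 1 and 5 with PTH, beside 45.1% and 45.7% of all genes called in either direction. The lower ones with vehicle were *Thbs1* (-0.63), *Thbs2*, *Serpinf1* (-0.42, adjusted p = 0.000142) and *Sparc* (-0.16, adjusted p = 0.0303), and the call of *Sparc* was lost with library totals (0.154) and without WT vehicle library 1 (0.118) or 3 (0.0747) or Y428F vehicle library 2 (0.103). With vehicle, *Thbs2* was lower in Y428F cells (-1.54, SE 0.096, adjusted p = 4.22e-11) and *Timp3*, at 5 to 13 counts in WT and 27 to 39 counts in Y428F libraries, was higher (1.88, SE 0.37, adjusted p = 0.000284).

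**Figure D5:**
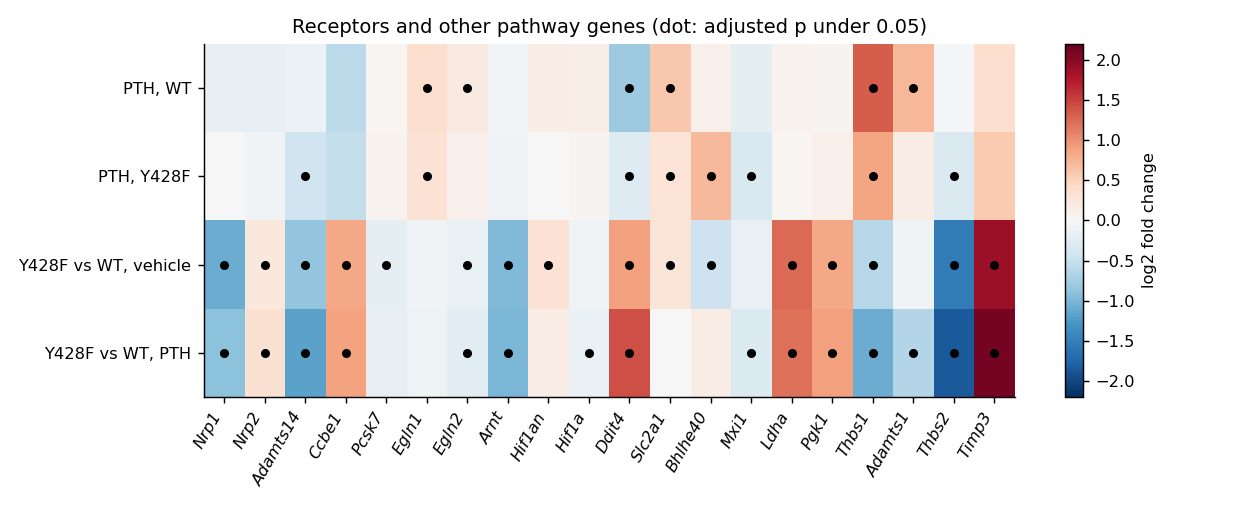
Log2 fold change (color) of receptors, processing enzymes, HIF genes, hypoxia targets and secreted inhibitors (columns) in 4 comparisons (rows); a black dot marks an adjusted p under 0.05 in edgeR's test. *Egln1*, *Slc2a1* and *Thbs1* are higher with PTH in both lines, *Nrp1*, *Adamts14*, *Arnt* and *Thbs2* are lower in Y428F than in WT cells, and *Ldha*, *Pgk1*, *Ddit4* and *Timp3* higher.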

How the data were processed

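RNA-Seq was performed on 12 libraries. Per the study's methods and processing notes, the authors mapped reads with STAR 2.7.10b to GRCm39 and deposited RSEM expected counts per gene, unscaled; reads were not analysed here. Groups came from library titles, and the genes and gene lists were chosen with earlier results of these data known. Expected counts were rounded and fitted in edgeR 4.0.16 (R 4.3.3) with TMM normalization, genes with at least 10 counts in total, and all 12 libraries in 4 groups; p-values are from its quasi-likelihood test, adjusted by Benjamini-Hochberg over 17691 genes. Totals of 17127897 to 19057319 counts set the precision, and no 2 libraries held identical values. Positions and exon lengths came from GENCODE vM39 on GRCm39 (56236 identifiers matched, 744 did not). The study's methods name the basic annotation of an earlier GENCODE release, so levels per kilobase combine counts and lengths from different annotations. Pathway genes named were, per list and comparison, up to 3 called genes with the largest change and at least 1 CPM, and the receptors. *Lpl*, *Angptl7*, *Serpinf1*, *Sparc*, *Ndrg1*, *Kdm3a* and *Hif3a*, and the line difference of *Bhlhe40*, were named after their values were seen. Genes most alike were ranked by Pearson's r of log2 CPM (prior count 2), and chromosome medians used genes of at least 4 CPM. The GC box was searched after the other motifs had been seen. The tests were tried on simulated counts. Alternatives were DESeq2 1.42.0, its size factors, library totals, other filters and limits, single-line fits, the replicate number as a block, the longest transcript as length, and each library left out in turn.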

Additional observations from a re-analysis of the deposited data

Results flagged for a closer look

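The response to PTH differed between the lines, by the test of the difference itself in edgeR, for *Vegfa* and for 3 genes of the pathway lists. List genes were named for this comparison only where they passed that limit, so the count of 3 follows from the naming. Of all genes, 0.413% were called, 73 of 17691. For *Vegfa* the log2 fold change was 0.37 higher in Y428F cells (adjusted p = 0.0372), a call lost in 10 of the 12 fits that left out 1 library (adjusted p up to 0.137). *Bhlhe40* rose with PTH in Y428F cells and was not called in WT cells, a difference of 0.61 (SE 0.10, adjusted p = 0.00997), called in each of these 12 fits. *Ddit4* fell in both lines, by less in Y428F cells, with a difference of 0.52 (SE 0.10, adjusted p = 0.0226). That call was lost without WT PTH library 2 (adjusted p = 0.0712), Y428F vehicle library 2 (0.0726) or 3 (0.0883), or Y428F PTH library 1 (0.0561) or 3 (0.0821). *Adamts1* rose in WT cells and was not called in Y428F cells, a difference of -0.57 (SE 0.10, adjusted p = 0.0162), lost without WT PTH library 1 (0.0545) or 2 (0.0597), Y428F vehicle library 1 (0.0562) or 2 (0.0520), or Y428F PTH library 3 (0.0605).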

How the results depend on the processing

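Of 288 values of the 9 ligands under settings other than leaving out a library, 273 kept their direction and their side of the limit, 9 came to pass it, 3 ceased to, and 3 changed sign. In the fits with 1 library left out, 503 values of these ligands kept both, 4 came to pass the limit, 21 ceased to, and 12 changed sign. At an adjusted p under 0.01 with a log2 fold change over 0.3, the number of ligands called went from 2 to 1 with PTH in Y428F cells and from 1 to 0 for the difference in response. Leaving out 1 library gave 1 to 3 and 0 to 1 for these 2 counts. Among all 17691 genes, the stricter limit took the same counts from 2192 to 942 and from 73 to 22. All genes called with PTH in Y428F cells were 819 higher and 616 lower without Y428F vehicle library 1. Without WT vehicle library 1 they were 1329 and 1186, against 1170 and 1022 with all libraries. The ligand counts of the other comparisons also fell at the stricter limit. *Vegfb* with PTH in WT cells (-0.24) and *Angptl4* between the lines (-0.17 with vehicle, -0.28 with PTH) did not pass it. Ranked per kilobase of the longest transcript, 1 of 9 ligands kept its place in all 4 groups. Signs turned for values near 0: *Vegfc* with PTH in WT cells (-0.041 with library totals, -0.0001409 with 10 counts in every library), *Angpt1* (-0.031 with library totals) and *Nrp1* (-0.035 and -0.000963) with PTH in Y428F cells. Without 1 library the PTH response ranged from -0.085 to 0.178 for *Vegfc* in WT cells, from -0.215 to 0.0239 for *Angpt1* in WT and from -0.109 to 0.0988 in Y428F cells, from -0.0895 to 0.000353 for *Vegfb* and from -0.0443 to 0.0331 for *Nrp1* in Y428F cells, and the difference in response from -0.034 to 0.225 for *Angpt1* and from -0.098 to 0.0187 for *Angptl2*. The line difference of *Cd36* with PTH ranged from -0.0698 to 0.539. The cause was not tested. Libraries that share a replicate number did not deviate together (mean correlation 0.00226 over 18 pairs, 4 of them over 0.1), and the replicate block changed 1 call of a ligand, *Angptl2* with PTH in Y428F cells, to an adjusted p of 0.0430; it moved the genes called with PTH in WT cells from 1312 higher and 1063 lower to 1345 and 1085. With library totals that split became 956 and 1608, and the median of all genes moved from -0.02 to -0.07. Without any filter on low counts, 216 genes rather than 73 differed in response. Leaving out a library could also lower that count. Without Y428F PTH library 3 it was 6 genes higher and 18 lower, against 30 and 43 with all libraries. Depth limits *Angpt2* (51 to 115 counts per library) and *Flt1*, *Kdr*, *Flt4*, *Tek* and *Tie1* (0 to 16 counts).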

Other observations

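Of 6 other angiopoietin and angiopoietin-like genes, 2 had 0 counts in every library and 3 were tested, and none was called with PTH in either line, beside 13.4% of all genes in WT and 12.4% in Y428F cells. At an unadjusted p under 0.05 it was 1 gene in each line in edgeR's test, and DESeq2 called none. Between the lines with vehicle, 1 was higher and 2 were lower in Y428F cells, beside 22.4% of all genes called higher and 22.7% lower. *Angptl7* had 20 to 47 counts in WT and 0 to 3 counts in Y428F libraries, with a log2 difference of -4.26 with vehicle (95% interval -5.51 to -3.02, adjusted p = 4.83e-06 in edgeR's test) and -4.55 with PTH (adjusted p = 3.47e-06). *Angptl6* had a log2 difference of -0.51 (SE 0.16, adjusted p = 0.0138 in edgeR's test), lost without WT vehicle library 1 (0.105) or Y428F vehicle library 3 (0.0595), and of -0.68 (SE 0.17, adjusted p = 0.00242) with PTH. *Angpt4*, a further ligand of *Tek*, was higher with vehicle by 0.55 (SE 0.21, adjusted p = 0.0384), a call lost with DESeq2 (0.0571) and without WT vehicle library 1 (0.142) or 3 (0.0928) or Y428F vehicle library 1 (0.233) or 2 (0.0944), and its log2 difference with PTH was -0.20 (adjusted p = 0.472). Among genes for lipid handling, *Fabp4* was lower in Y428F cells with vehicle (-2.03, SE 0.13, adjusted p = 8.67e-11), and *Cd36* was higher (2.06, SE 0.40, adjusted p = 0.000241). With PTH the line difference of *Cd36* was 0.18 and not called (adjusted p = 0.725).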
